A study of Mus musculus with 6 samples.

Results

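The 37 genes described here encode proteins that make ribosomes in the nucleolus, from transcription of the ribosomal RNA (rRNA) genes to the export of the assembled subunits. They were taken by name from the deposited gene count table, where 37 of 37 were found among 23358 gene rows. Ordered by the step at which their products act, they comprised 7 genes of RNA polymerase I transcription, 4 nucleolar phosphoproteins and chaperones, 4 proteins of box C/D small nucleolar ribonucleoproteins (snoRNPs), 4 proteins of box H/ACA snoRNPs, 5 factors of small subunit processing, 11 of large subunit processing and 2 of late maturation and export. RNA sequencing libraries came from MC3T3-E1, an established line of mouse pre-osteoblasts derived from calvaria of the C57BL/6 background. The treated group, with 3 samples, was given 1 µM NU7441, which inhibits DNA-PK, a kinase that is activated by DNA ends, for 16 h at confluency, and the control group, also with 3 samples, was given the solvent DMSO for the same time. The series asks how DNA-PK and its substrate αNAC bear on osteoblast formation. Its design text states that the triplicates of each of 3 independent experiments were combined before sequencing, so that each sample is a pool. It does not say which experiment a sample number stands for. The p-values therefore measure the spread between these samples. That spread may be technical, or may lie between experiments if each sample pools 1 experiment.

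A ribosome begins as a long rRNA precursor that RNA polymerase I transcribes in the nucleolus. Small nucleolar RNAs, carried in box C/D and box H/ACA snoRNPs, guide the methylation and pseudouridylation of that precursor. Helicases, WD-repeat proteins and nucleases then fold and cut it while ribosomal proteins are added, and the small and large subunits leave the nucleus separately. Genes of this pathway are widely expressed and are known to be high in growing cells.

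The libraries held between 47312968 and 71292628 gene counts, with the shallowest and the deepest library both in DMSO, and all 37 genes passed the filter on low counts. Levels are given as CPM, in which the counts of a library are scaled to a common total, and a log2 fold change is NU7441 against DMSO, with its standard error (SE) and a Benjamini-Hochberg adjusted p from the quasi-likelihood test of edgeR over all 13784 genes tested. A gene is said to have risen or fallen where that p was under 0.05. The 9 osteoblast markers looked at summed to between 47042 and 49485 CPM in DMSO and between 48518 and 50000 CPM in NU7441. None of the 9 had 0 counts throughout. Of these, Col1a1 and Runx2 stood at means of 18584 and 174 CPM in DMSO. Alpl, also among them, fell by -0.29 ± 0.07 on the log2 scale (SE; edgeR adjusted p = 0.00597), and the others are not given singly. The 6 markers of muscle precursors summed to between 1.12 and 1.69 CPM per library, the 6 of endothelium to at most 0.625, the 6 of adipocytes to at most 1.43, and the 5 of macrophages to at most 7.75, and Myod1, Myf5, Ptprc, Kdr and Tie1 had 0 counts in every library. The 6 chondrocyte markers summed to between 81.9 and 83.8 CPM in DMSO and between 88.99 and 93.4 CPM in NU7441, most of it Sox9, with Acan at 0, and the part of this in the results was not tested. In bulk RNA, fewer cells that use a gene and less of its RNA per cell cannot be told apart.

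Most of the 37 genes were slightly lower in NU7441. Of the 37, 31 fell, against 16.6% of all genes tested, and 1 rose, against 14.1%. The other 5, Npm1, Nop14, Ddx10, Pes1 and Nob1, did not pass the test. The 37 genes were chosen with earlier results of these data known, so the shares are a description and not an independent comparison. Fold changes ran from -0.52 for Nop56 to 0.09 for Polr1c on the log2 scale, with a median of -0.27, beside a median of 0.01 over all genes tested, and none reached a change of 2-fold. In 33 of the 37 every NU7441 sample lay below every DMSO sample, a separation that 22.2% of all genes tested showed, and in 1 every NU7441 sample lay above, against 20.6%. With upper-quartile scaling, where 56.5% of all calls were higher against 45.9% with the scaling used here, 28 of the 37 genes fell and 1 rose. With any 1 library left out the number that fell lay between 27, without DMSO replicate 3, and 31.

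The shift was present in each NU7441 library. Relative to its DMSO mean, the median gene of the 37 lay at -0.04, 0.00 and 0.04 on the log2 scale in DMSO replicates 1, 2 and 3, and at -0.31, -0.25 and -0.25 in the NU7441 replicates. The libraries of the 2 groups therefore did not overlap in this median. NU7441 replicate 1 held the lowest NU7441 value for 25 of the 37 genes, and DMSO replicate 1 the lowest DMSO value for 22. Summed over the 37, the level was 3769.8, 3773 and 3794 CPM in DMSO and 3325, 3290.1 and 3374 CPM in NU7441. The DMSO sums lay close together and above every NU7441 sum. Npm1 and Ncl, at means of 855 and 852 CPM in DMSO, weighed most in these sums. The spread between samples of one group was small, with a median coefficient of variation of 3.06% in DMSO and 3.49% in NU7441 over the 37 genes, and it was widest for Rrp9 in DMSO (9.53%) and for Nop16 in NU7441 (10.7%).

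**Figure D1:**
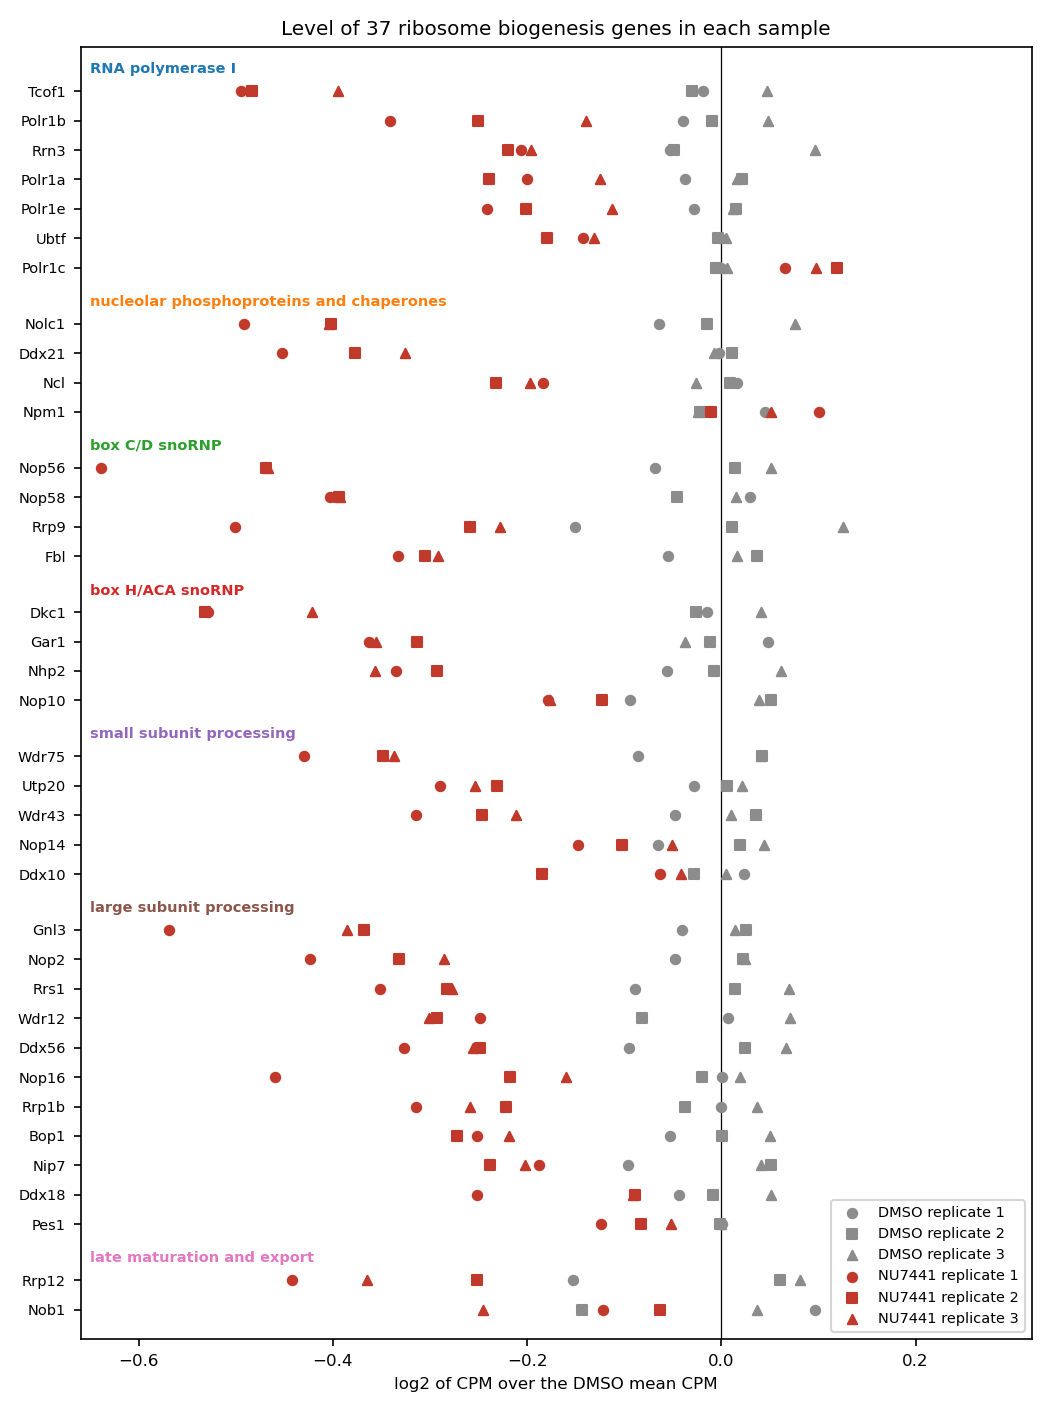
Level of each of the 37 genes in each sample, as the log2 of its CPM over the mean CPM of the DMSO samples (x axis), grouped by the step in which the product acts; grey symbols are the 3 DMSO and red symbols the 3 NU7441 libraries. Red lies left of grey without overlap for 33 genes, right of it for Polr1c, and overlaps it for Npm1, Nop14 and Nob1.

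Other transcripts differed between the same libraries. The 24 mitosis genes of a comparison list, made with earlier results of these data known, all fell (100%, against 16.6% of all genes tested). Their median was -1.41. Their summed level was 2209.6, 1981 and 1912 CPM in DMSO and 869.9, 733 and 699 CPM in NU7441. In each group replicate 1 had the highest mitosis sum and the lowest median of the 37 genes. Neat1, a nuclear long noncoding RNA, rose by 0.46 ± 0.05 on the log2 scale (SE; edgeR adjusted p = 2.74e-06) and Malat1, another, by 0.28 ± 0.09 (edgeR adjusted p = 0.0251). The part of cell division and of nuclear RNA content in the fall of the 37 genes was not tested.

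The promoter sequences of a few of the genes are shown because the genes moved together. RefSeq promoters (build GRCm38.p6, 250 bases before to 50 after a gene start) were matched by symbol for 31 of the 37 genes. The hexamer CACGTG, an E-box that MYC and other factors can bind and that reads the same on both strands, occurred in the window of 5 of these 31 genes (16.1%): Nop2, Pes1, Rrn3, Utp20 and Wdr43. It occurred in 11.5% of 9650 tested genes with a promoter in the table and in 18 of 89 other ribosome biogenesis genes. The median log2 fold change was -0.26 for the 5 genes with the hexamer and -0.27 for the 26 without it. CCGGAA, the core to which ETS factors bind, was searched on both strands after the sequences had been seen. It occurred in 11 of the 31 genes (35.5%), in 29.9% of the tested genes and in 64% of the other ribosome biogenesis genes. Bases upstream of the start are printed 5′ to 3′ on the gene's strand, with matches to either motif in capitals, for the gene with the strongest fall among those with CACGTG (Nop2, chr6:125131733-125131882, plus strand), for the polymerase I initiation factor with CACGTG at 2 places (Rrn3, chr16:13780449-13780698, plus strand), for the gene with the largest fall (Nop56, chr2:130274262-130274411, plus strand), which holds none of them here, and for the gene that rose (Polr1c, chr17:46248046-46248195, minus strand).
Nop2: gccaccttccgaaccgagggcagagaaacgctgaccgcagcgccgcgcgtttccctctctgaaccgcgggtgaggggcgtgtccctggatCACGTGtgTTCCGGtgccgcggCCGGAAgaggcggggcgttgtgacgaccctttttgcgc
Rrn3: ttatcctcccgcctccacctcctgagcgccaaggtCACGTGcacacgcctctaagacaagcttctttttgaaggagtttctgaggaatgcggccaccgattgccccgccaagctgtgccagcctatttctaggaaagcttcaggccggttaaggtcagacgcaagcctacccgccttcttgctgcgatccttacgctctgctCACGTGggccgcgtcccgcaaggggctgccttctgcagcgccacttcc
Nop56: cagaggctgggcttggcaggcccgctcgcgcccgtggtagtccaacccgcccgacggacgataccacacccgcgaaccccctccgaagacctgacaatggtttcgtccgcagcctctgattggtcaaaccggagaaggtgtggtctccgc
Polr1c: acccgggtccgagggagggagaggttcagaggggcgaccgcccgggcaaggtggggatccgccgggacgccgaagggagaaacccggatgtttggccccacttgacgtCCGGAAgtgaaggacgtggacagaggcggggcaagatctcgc
In Nop2 the first base of CACGTG lies 60 bases before the start, and in Rrn3 the first bases lie 215 and 48 bases before it. The printed stretches leave out part of the searched window. Rrn3 is among the 11 genes with CCGGAA but has no match to it in the bases printed. A match describes these letters only and is not evidence of binding.

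Of the genes of RNA polymerase I, 6 of 7 fell (85.7%, against 16.6% of all genes tested) and Polr1c rose. Their median log2 fold change was -0.19. Of 10 other polymerase I genes, described below, 1 fell (10%). Polr1a, the gene of the largest catalytic subunit (mm10 chromosome 6, 71909053 to 71979360, plus strand), had 104, 109 and 108 CPM in DMSO and 93.3, 90.9 and 98.3 CPM in NU7441. All 3 NU7441 values lay below all DMSO values, and Polr1a fell by 12.2%, on the log2 scale -0.19 ± 0.04 (SE; edgeR adjusted p = 0.00103). Polr1b, which encodes the second catalytic subunit, had 31.8, 32.4 and 33.8 CPM in DMSO and 25.8, 27.5 and 29.7 CPM in NU7441. It changed by -0.24 ± 0.05 (SE; edgeR adjusted p = 0.00158), again without overlap. Polr1e, which encodes a subunit particular to polymerase I, was the lowest of the 37 genes in CPM per kb of the deposited length, though with GENCODE lengths Wdr12 was lower. Polr1e had 12.3, 12.7 and 12.6 CPM in DMSO and 10.6, 10.9 and 11.6 CPM in NU7441. Its call was near the threshold, at -0.18 ± 0.06 (SE; edgeR adjusted p = 0.0409), and was lost with upper-quartile scaling, with DESeq2 and without any 1 library other than NU7441 replicate 3, with adjusted p up to 0.144.

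The fitted change was larger for Tcof1 than for the initiation factors, a difference between genes that was not tested. Ubtf, whose product UBF binds the rRNA genes and keeps them open, had 180.2, 179.9 and 181 CPM in DMSO and 163, 159 and 165 CPM in NU7441. The DMSO values of Ubtf were almost equal, every NU7441 value lay below them, and the gene changed by -0.15 ± 0.03 (SE; edgeR adjusted p = 0.000736). Rrn3, whose product brings the polymerase to the promoter, had 55.5, 55.7 and 61.5 CPM in DMSO and 49.9, 49.4 and 50.3 CPM in NU7441. DMSO replicate 3 stood above the other DMSO samples, every NU7441 sample stood below them, and the change was -0.21 ± 0.04 (SE; edgeR adjusted p = 0.00155). Tcof1, the gene of treacle, a nucleolar phosphoprotein needed for rRNA transcription (mm10 chromosome 18, 60813756 to 60848964, minus strand), had 59.2, 58.8 and 61.99 CPM in DMSO and 42.6, 42.9 and 45.6 CPM in NU7441. That is a fall of 27.2%, at -0.46 ± 0.04 (SE; edgeR adjusted p = 4.53e-07), and the third largest among the 37 genes.

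Polr1c, which encodes a subunit shared by RNA polymerases I and III, went the other way (mm10 chromosome 17, 46243920 to 46248045, minus strand). It had 47.2, 47.02 and 47.4 CPM in DMSO and 49.4, 51.3 and 50.5 CPM in NU7441. The groups did not overlap, but the rise was small, at 0.09 ± 0.03 (SE; edgeR adjusted p = 0.0464). The call was lost with library size only (adjusted p = 0.119), without a filter on low counts, with DESeq2, with a robust fit, and without any 1 library other than NU7441 replicate 1, with adjusted p from 0.0744 to 0.114. The fold change stayed positive in each of these fits. For this and a few other pairs, chosen after the values were seen, the ratio of counts within a library is given without a test, since scaling between libraries does not alter it. The ratio of Polr1c to Polr1a was 0.452, 0.432 and 0.437 in DMSO and 0.529, 0.564 and 0.514 in NU7441, again without overlap. Among polymerase I genes that are not members, Polr1d, the partner of Polr1c in both polymerases, was looked at after its value was seen and changed by 0.09 ± 0.03 (SE; edgeR adjusted p = 0.0503). Of the 10 other polymerase I genes in a list by function, 1 fell (10%, against 16.6% of all genes tested) and 1 rose (10%, against 14.1%). Their median was -0.04. The gene that rose was Baz2a, a nucleolar silencing factor, at 0.14 ± 0.03 (SE; edgeR adjusted p = 0.00387).

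The abundant nucleolar proteins differed among themselves. Npm1, which encodes nucleophosmin, and Ncl, which encodes nucleolin, were the members with the highest level per length, at 498 ± 13.5 and 103 ± 1.61 CPM per kb of the deposited length in DMSO (SD, n = 3). Npm1 (mm10 chromosome 11, 33152498 to 33163206, minus strand) had 882, 843 and 841 CPM in DMSO and 917, 849 and 886 CPM in NU7441. These ranges overlapped and the change of Npm1 was 0.05 ± 0.03 (SE; edgeR adjusted p = 0.267). Ncl (mm10 chromosome 1, 86344719 to 86359455, minus strand) had 862, 857 and 837 CPM in DMSO and 750.1, 725 and 743 CPM in NU7441. It fell by 13.2%, at -0.20 ± 0.02 (SE; edgeR adjusted p = 1.97e-05), with every NU7441 sample below every DMSO sample. The ratio of Npm1 to Ncl within a library was 1.02, 0.984 and 1.00 in DMSO and 1.22, 1.17 and 1.19 in NU7441, so that this pair of genes, near equal in counts in DMSO, moved apart in each NU7441 library. Npm1 is known to have processed pseudogenes, and how the counting treated reads shared with them is not stated.

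Nolc1 and Ddx21, the remaining genes of this class, also fell, so that 3 of 4 did (75%, against 16.6% of all genes tested). Nolc1, whose product is a chaperone of snoRNPs, had 106, 109.9 and 117 CPM in DMSO and 78.97, 84.02 and 83.9 CPM in NU7441. No NU7441 value came near the DMSO range, and the change was -0.43 ± 0.04 (SE; edgeR adjusted p = 1.25e-06). Ddx21, an RNA helicase that works in rRNA transcription and processing, had 159, 160.1 and 158 CPM in DMSO and 116, 122 and 127 CPM in NU7441. Its DMSO values were almost equal, and it changed by -0.38 ± 0.03 (SE; edgeR adjusted p = 4.71e-07).

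Each of the 4 box C/D genes fell (100%, against 16.6% of all genes tested), with a median of -0.36. Their summed level was 319, 327 and 334 CPM in DMSO and 234, 248 and 249 CPM in NU7441. The products of Nop56, Nop58 and Fbl are core proteins of the particles that methylate the sugar of rRNA nucleotides. Nop56, a core scaffold protein (mm10 chromosome 2, 130274412 to 130279313, plus strand), had 124, 132 and 135 CPM in DMSO and 83.7, 94.2 and 94.4 CPM in NU7441. This fall of 30.4%, at -0.52 ± 0.05 (SE; edgeR adjusted p = 5.98e-07), was the largest of the 37 genes, and NU7441 replicate 1 was the lowest library. Nop58, the partner of Nop56 in the scaffold, had 112, 106 and 111 CPM in DMSO and 82.7, 83.3 and 83.4 CPM in NU7441. The NU7441 values of Nop58 were nearly identical and lay below the DMSO range, at -0.40 ± 0.03 (SE; edgeR adjusted p = 3.18e-07). Fbl, the gene of the methyltransferase fibrillarin, had 70.6, 75.2 and 74.2 CPM in DMSO and 58.2, 59.4 and 59.9 CPM in NU7441. It changed by -0.31 ± 0.04 (SE; edgeR adjusted p = 1.16e-05), and the ratio of Nop56 to Fbl was 1.76, 1.75 and 1.82 in DMSO and 1.44, 1.59 and 1.57 in NU7441. Rrp9, a protein of the particle that directs early cleavage of the precursor, had 12.1, 13.6 and 14.7 CPM in DMSO and 9.51, 11.2 and 11.5 CPM in NU7441. Its DMSO samples were the most scattered of the 37 genes, and they still lay above all NU7441 samples. The change was -0.33 ± 0.09 (SE; edgeR adjusted p = 0.00928), and it did not pass once DMSO replicate 3 was left out (log2 fold change -0.25, adjusted p = 0.0636).

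The 4 box H/ACA genes, whose products form particles that turn uridine into pseudouridine, fell as well (100%, against 16.6% of all genes tested). Their median was -0.34. Dkc1, the gene of the pseudouridine synthase dyskerin, which is also part of telomerase (mm10 chromosome X, 75095854 to 75109776, plus strand), had 50.99, 50.6 and 52.99 CPM in DMSO and 35.7, 35.6 and 38.5 CPM in NU7441. It fell by 29.00%, at -0.49 ± 0.04 (SE; edgeR adjusted p = 2.28e-07), with a wide gap between the groups. Gar1 had 25.7, 24.6 and 24.2 CPM in DMSO and 19.3, 19.99 and 19.4 CPM in NU7441 and changed by -0.34 ± 0.05 (SE; edgeR adjusted p = 4.06e-05). Nhp2 had 25.3, 26.2 and 27.4 CPM in DMSO and 20.9, 21.5 and 20.5 CPM in NU7441 and changed by -0.33 ± 0.05 (SE; edgeR adjusted p = 6.54e-05). Gar1 and Nhp2, the other core proteins beside Nop10, thus fell by about the same amount, each without overlap of the groups. Nop10, the smallest of the core proteins, had 23.3, 25.8 and 25.6 CPM in DMSO and 22.00, 22.9 and 22.03 CPM in NU7441. Its fitted change was the smallest of the 4, at -0.16 ± 0.05 (SE; edgeR adjusted p = 0.0215). With DMSO replicate 2, DMSO replicate 3, NU7441 replicate 1 or else NU7441 replicate 3 left out it no longer passed (adjusted p from 0.0511 to 0.0975) and with upper-quartile scaling (0.0512). The ratio of Dkc1 to Nop10 was 2.19, 1.96 and 2.07 in DMSO and 1.62, 1.56 and 1.75 in NU7441.

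**Figure D2:**
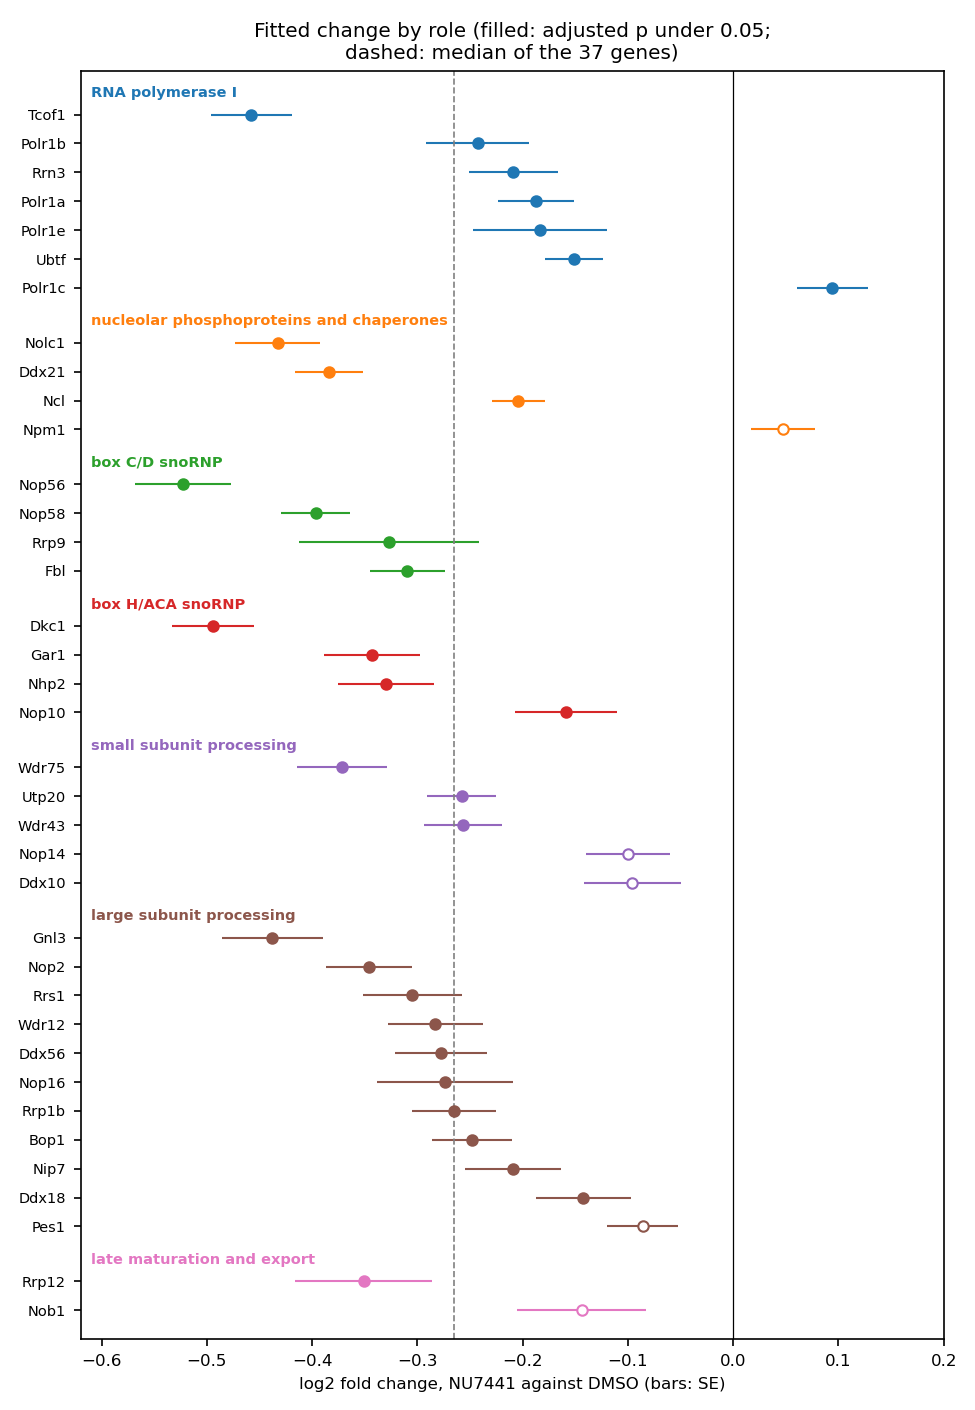
Fitted log2 fold change of each of the 37 genes, NU7441 against DMSO (x axis, bars are SE from edgeR), by the step in which the product acts; filled points passed an adjusted p of 0.05 and the dashed line is the median of -0.27. Both snoRNP classes lie left of zero with all 8 genes filled, and Polr1c and Npm1 are the 2 points right of it.

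Of the 5 small subunit factors 3 fell (60%, against 16.6% of all genes tested), with a median of -0.26 over all 5. Wdr75, a WD-repeat protein that joins early rRNA transcription to processing, had 59.8, 65.3 and 65.3 CPM in DMSO and 47.1, 49.8 and 50.2 CPM in NU7441. DMSO replicate 1 was the lowest control but stayed well above all NU7441 samples, and the change was -0.37 ± 0.04 (SE; edgeR adjusted p = 1.02e-05). Wdr43, of the same early complex, had 85.6, 90.7 and 89.1 CPM in DMSO and 71.1, 74.6 and 76.4 CPM in NU7441 and changed by -0.26 ± 0.04 (SE; edgeR adjusted p = 9.88e-05). Utp20, a large scaffold of the small subunit precursor, had 94.3, 96.6 and 97.7 CPM in DMSO and 78.7, 81.96 and 80.7 CPM in NU7441. Its samples were tight in both groups and it changed by -0.26 ± 0.03 (SE; edgeR adjusted p = 2.88e-05). Nop14, another assembly factor, had 56.1, 59.5 and 60.5 CPM in DMSO and 52.97, 54.7 and 56.7 CPM in NU7441. NU7441 replicate 3 of Nop14 reached the DMSO range, and the change did not pass, at -0.10 ± 0.04 (SE; edgeR adjusted p = 0.0715). It passed without DMSO replicate 1 (adjusted p = 0.0244), without NU7441 replicate 3 (0.0446) and with library size only (0.0314). Ddx10, an RNA helicase, changed by -0.10 ± 0.05 (SE; edgeR adjusted p = 0.137) although its highest NU7441 value, 25.1 CPM, lay under its lowest DMSO value, 25.3 CPM.

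Of the 11 large subunit factors 10 fell (90.9%, against 16.6% of all genes tested), with a median of -0.27 over all 11. All 11 had their NU7441 samples below their DMSO samples, a separation that 22.2% of all genes tested showed. Gnl3, the gene of the nucleolar GTPase nucleostemin (mm10 chromosome 14, 31012433 to 31019089, minus strand), had 46.02, 48.2 and 47.8 CPM in DMSO and 31.9, 36.7 and 36.2 CPM in NU7441. It fell by 26.2%, at -0.44 ± 0.05 (SE; edgeR adjusted p = 6.13e-06), and NU7441 replicate 1 was again the lowest. Nop2, an rRNA cytosine methyltransferase once described as a proliferation antigen, had 52.5, 55.1 and 55.2 CPM in DMSO and 40.4, 43.1 and 44.5 CPM in NU7441 and changed by -0.35 ± 0.04 (SE; edgeR adjusted p = 1.37e-05). Rrs1, which helps to place the small ribosomal RNA of the large subunit, had 27.5, 29.5 and 30.6 CPM in DMSO and 22.9, 24.00 and 24.1 CPM in NU7441 and changed by -0.30 ± 0.05 (SE; edgeR adjusted p = 0.000172). These are steady falls with clear gaps between the groups.

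The PeBoW complex, which acts in large subunit processing, has 3 genes here, of which 2 fell, against 16.6% of all genes tested. Bop1 had 41.2, 42.8 and 44.2 CPM in DMSO and 35.9, 35.4 and 36.7 CPM in NU7441 and fell, at -0.25 ± 0.04 (SE; edgeR adjusted p = 0.00015). Wdr12 had 29.4, 27.6 and 30.7 CPM in DMSO and 24.6, 23.9 and 23.8 CPM in NU7441 and fell, at -0.28 ± 0.05 (SE; edgeR adjusted p = 0.00023). Pes1 had 76.8, 76.7 and 76.7 CPM in DMSO and 70.4, 72.4 and 74.01 CPM in NU7441. The DMSO values of Pes1 were almost equal and the groups did not overlap, but its change was -0.09 ± 0.03 (SE; edgeR adjusted p = 0.0649) and passed with library size only (adjusted p = 0.0264). Among the remaining factors Ddx56, a helicase, changed by -0.28 ± 0.04, Nop16 by -0.27 ± 0.06, Rrp1b by -0.27 ± 0.04 and Nip7 by -0.21 ± 0.05 (edgeR adjusted p from 0.000137 to 0.00484). In Nop16 the NU7441 values were 16.5, 19.5 and 20.3 CPM, and the first of these set it apart from the others. Ddx18, also a helicase, changed by -0.14 ± 0.05 (SE; edgeR adjusted p = 0.0275). Ddx18 no longer passed when DMSO replicate 2 was left out (adjusted p = 0.0583), without DMSO replicate 3 (0.102), with upper-quartile scaling (0.067) or with NU7441 replicate 1 omitted (0.0822; -0.09 on the log2 scale).

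Of the 2 late factors 1 fell (50%, against 16.6% of all genes tested). Rrp12, which takes part in the export of both subunits, had 22.3, 25.9 and 26.2 CPM in DMSO and 18.3, 20.8 and 19.3 CPM in NU7441. The DMSO samples were scattered, with replicate 1 lowest, yet all lay above the NU7441 samples, and the change was -0.35 ± 0.07 (SE; edgeR adjusted p = 0.000804). Nob1, the nuclease that makes the final cut of the small subunit rRNA, had 27.6, 23.4 and 26.5 CPM in DMSO and 23.8, 24.7 and 21.8 CPM in NU7441. Its groups overlapped through DMSO replicate 2, the lowest control, and the change was -0.14 ± 0.06 (SE; edgeR adjusted p = 0.093). Without that library Nob1 passed, at -0.21 (adjusted p = 0.0193), and the count of late factors that fell became 2.

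The order of levels was compared per length. In DMSO the 37 genes ran from 4.26 ± 0.0708 CPM per kb for Polr1e to 498 ± 13.5 for Npm1 (SD, n = 3), and after Npm1 and Ncl came Nop56 (68.8 ± 2.88), Fbl (63.3 ± 2.10) and Nop58 (55.4 ± 1.52). The DMSO samples of these neighbours in the order did not overlap on this scale. The deposited length is shorter than the merged exons of GENCODE M21 for most of the genes, and for Nop58 it is 0.184 of them. With GENCODE lengths Npm1, Ncl and Nop56 were still ranked 1, 2 and 3, whereas Fbl moved to 16 and Nop58 to 25, so the order below the top is uncertain. Across the 37 genes the log2 level per length and the log2 fold change were not closely related (Pearson r = 0.161, Spearman rho = 0.013, n = 37 genes that share libraries and depth). The member with the highest level per length, Npm1, did not pass the test, and Nop56, the third in that order, had the largest fall.

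**Figure D3:**
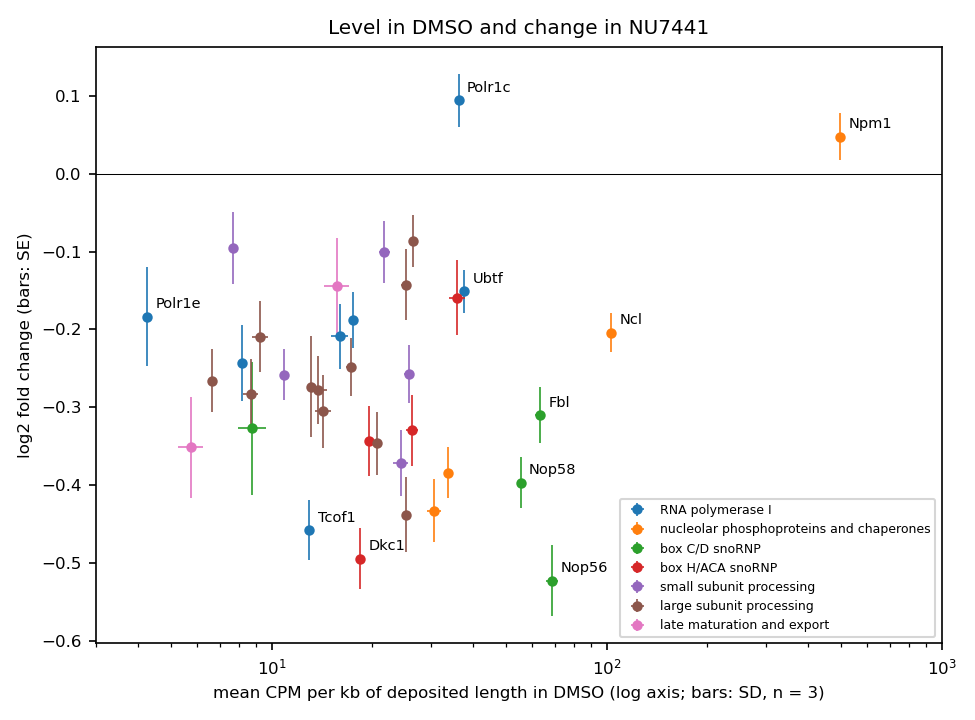
Mean level per length in DMSO (x axis, log scale, CPM per kb of the deposited length, bars are SD of 3 samples) against the fitted log2 fold change in NU7441 (y axis, bars are SE) for the 37 genes, coloured by step. The points show no clear slope (Spearman rho = 0.013); Npm1 is far right and above zero, Nop56 far down among the abundant genes.

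Other genes of the pathway were taken by function. This list and those compared below were made with earlier results of these data known. Of 111 tested, 69 fell (62.2%, against 16.6% of all genes tested) and 6 rose (5.41%, against 14.1%), with a median of -0.17. The numbers that fell were 7 of 9 (77.8%) for snoRNP assembly, 22 of 35 (62.9%) for the small subunit and 29 of 41 (70.7%) for the large subunit. For late maturation and export 10 of 16 (62.5%) fell. For polymerase I it was 1 of 10 (10%), under the share of all genes tested. Those with the lowest p among the falls were Rangap1, which activates the GTPase of nuclear transport and went from 92.3 ± 1.82 to 45.5 ± 2.11 CPM (mean ± SD, n = 3; log2 fold change -1.02 ± 0.04), Ran, that GTPase itself (-0.48 ± 0.03), Tbl3, a small subunit factor (-0.43 ± 0.04), Ruvbl2, an ATPase of snoRNP assembly (-0.43 ± 0.04), and the exportin Xpo1 (-0.33 ± 0.03). Rangap1, Ran and Xpo1 serve nuclear transport in general. Among the rises were Gltscr2, a nucleolar protein of the large subunit, from 78.8 ± 1.66 to 104 ± 2.70 CPM (0.40 ± 0.03), Nsa2 (0.27 ± 0.03), Sbds, a factor of late large subunit maturation (0.17 ± 0.04), and Zfp622 (0.15 ± 0.05; edgeR adjusted p for these 4 from 4.15e-07 to 0.0176).

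The ribosomal proteins, which these factors assemble with rRNA, went in the other direction. Of 78 tested cytosolic ribosomal protein genes 68 rose (87.2%, against 14.1% of all genes tested) and 2 fell (2.56%, against 16.6%), with a median of 0.17. Their summed level was 49101, 49555 and 49957 CPM in DMSO and 56053, 55432 and 56365 CPM in NU7441. The ribosomal protein genes with the lowest p were Rpl10 (0.25 ± 0.02) and Rpl3 (0.23 ± 0.02), while Rpl26 (-0.63 ± 0.15) and Rpl34 (-0.43 ± 0.09), both low in counts, fell. Rn45s, the row of the rRNA precursor, had 131570.0, 138090.0 and 127740.0 CPM in DMSO and 121600.0, 131030.0 and 133380.0 CPM in NU7441. Those ranges overlapped and the change was -0.04 ± 0.03 (SE; edgeR adjusted p = 0.288). An mRNA library kit was used, and Rn45s still held between 12.21% (NU7441 replicate 1) and 13.85% (DMSO replicate 2) of a library's counts. Rn45s counts therefore need not follow the amount of precursor in the cells. Genes of the RNA exosome, which trims rRNA precursors, fell in 10 of 16 cases (62.5%, against 16.6% of all genes tested) and in 5 without DMSO replicate 3. Their median was -0.16, and Exosc8 (-0.55 ± 0.05) and Dis3 (-0.45 ± 0.05) had the lowest p. Of 22 subunits of RNA polymerases II and III 5 fell (22.7%, against 16.6% of all genes tested) and 2 rose (9.09%, against 14.1%), with a median of -0.06. With DMSO replicate 2, NU7441 replicate 2 or else NU7441 replicate 3 omitted 3 of these fell, with DMSO replicate 3 omitted 2 fell, and whichever library was omitted 1 rose.

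**Figure D4:**
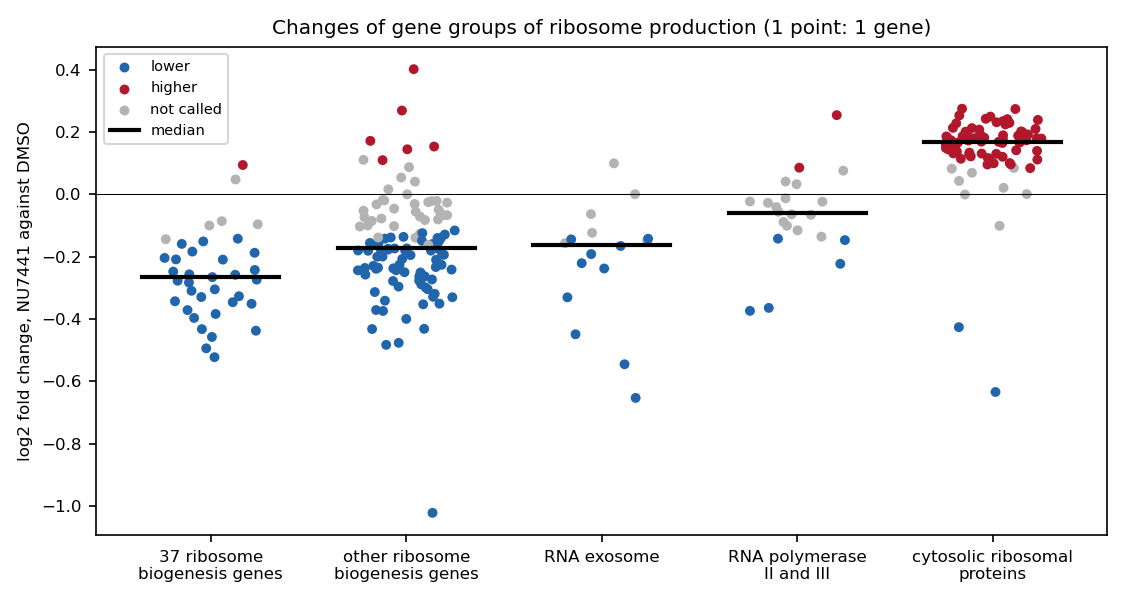
Fitted log2 fold change, NU7441 against DMSO (y axis), of single genes in 5 groups of ribosome production and RNA metabolism; blue points fell, red points rose, grey points did not pass an adjusted p of 0.05, and black bars are medians. The medians are -0.27 for the 37 genes, -0.17 for the other biogenesis genes, -0.16 for the exosome, -0.06 for polymerases II and III and 0.17 for the ribosomal proteins.

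Several of the 37 genes carry small nucleolar RNAs. The table had 10 snoRNA rows inside Ncl, Nop56, Nop58, Wdr43 and Gnl3, and each held at most 86 counts in any library. The fullest, Snord53 in Wdr43, had 52, 72 and 86 counts in DMSO and 38, 56 and 50 in NU7441, on the log2 scale -0.42 ± 0.24 (SE; edgeR adjusted p = 0.224). Of the 10 rows 5 passed the filter on low counts and 0 passed the test, with SEs from 0.24 to 0.55 on the log2 scale. In the merged exons of GENCODE M21, Snora75 shares 133 bases with Ncl, Snord57 72 with Nop56, and Snord69 80 and Snord19 76 with Gnl3, all on the same strand. On the other strand, exons of 7 of the 37 genes overlap those of a protein-coding gene with a row of the same name. The overlaps are 61 bases for Wdr12 and Carf, 54 for Rrp1b and Hsf2bp, 45 for Dkc1 and Mpp1 and 44 for Nhp2 and Rmnd5b. For Rrp9 and Parp3 they are 20, for Gnl3 and Pbrm1 15 and for Nop56 and Idh3b 5. Bop1 shares 50 bases with Mroh1 and Pes1 138 with 4930556J24Rik, protein-coding genes without a row of that name. A row named Heatr7a shares positions with Bop1. No source used here says if the counts kept the strands apart, so reads in these short stretches cannot be assigned.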

How the data were processed

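RNA was measured by sequencing in 6 samples of MC3T3-E1 cells. The tools bcl2fastq, TopHat2 (version 2.0.6) and HTSeq and the genome build mm10 are listed in the submitters' processing notes, without settings. The authors deposited whole-number counts, RPKM values and a gene length for 23358 rows, per the file headers. The deposited RPKM values were not used. The deposited counts hold 0 odd values, for a reason not given in the sources used here. Totals ranged from 47312968 to 71292628, and 0 sample columns were unmapped.

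In R 4.3.3, edgeR 4.0.16 was used to drop low genes (filterByExpr, at least 10 counts and a total of 15), to scale libraries (TMM) and to compare the groups by its two-sided quasi-likelihood test without covariates. Benjamini-Hochberg adjustment ran over 13784 genes, with a threshold of 0.05. SE was the log2 fold change divided by the square root of F. The procedure was tested on simulated data. Alternatives were other scalings, the table without Rn45s, no filter, DESeq2 1.42.0, halved counts, a replicate block, a robust fit and leaving out each sample. In every same-group pair the samples differed by more than sampling noise.

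The members and gene lists were chosen with earlier results of these data known. All 37 members may be named, with up to 5 other biogenesis genes and up to 2 genes of each comparison list per direction by lowest adjusted p. Not all of these are described.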

Additional observations from a re-analysis of the deposited data

How the results depend on the processing

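Across 15 alternatives, 35 of the 37 genes had a negative log2 fold change and between 27 and 33 fell, with a median between -0.29 and -0.24. The number that rose was 0 with library size only, without a filter on low counts, with DESeq2 and with a robust fit, and from 0 to 1 with 1 sample left out. The late factors that fell numbered 1 to 2 with 1 sample left out. The exosome genes that fell numbered from 5 to 8 in that case and those that rose 0 to 1. For RNA polymerases II and III the number that fell was 3 with upper-quartile scaling and 2 to 5 with 1 sample left out, and the number that rose was 1 with library size only, without a filter and without any 1 sample. The causes were not tested. Sample numbers are shared between the groups, but the labels do not say that they pair samples. Deviations of same-numbered samples correlated at 0.134, 0.088 and 0.047, and each sample correlated best with its own number, a hint from the data and not the design. With the number as a replicate block 33 of the 37 genes fell and 2 rose, Polr1c and Npm1 (adjusted p = 0.0445), while Nop14 (0.0152) and Pes1 (0.0286) joined the falls, and 1 exosome gene rose. No member changed direction in any alternative. Low counts limit the snoRNA rows.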
